A study of Mus musculus with 9 samples.

Results

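The mitochondrially encoded transcripts are the RNAs made from the mitochondrial chromosome itself. They were taken as the genes of the expression table whose Ensembl identifier belongs to a mouse symbol that starts with mt-, which gave 37 of the 54307 genes in the table. Of these 37 genes, 13 encode messenger RNAs (mRNAs), 2 encode ribosomal RNAs (rRNAs) and 22 encode transfer RNAs (tRNAs). The rule used symbols only and no measured value, but it was set with earlier results of these data known.

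The mitochondrial chromosome is a small circle that is copied and transcribed inside the organelle. Each strand is transcribed into a long precursor, which is cut mostly at the tRNAs that lie between the genes, and the pieces become mRNAs, rRNAs and tRNAs. All of its mRNAs encode subunits of the respiratory chain or of ATP synthase, which are built together with many subunits encoded in the nucleus, and muscle depends strongly on this system for energy. The rRNAs are the RNA cores of the mitochondrial ribosome, which translates these mRNAs.

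RNA was measured in C2C12 cells, a mouse myoblast line, in 3 groups of 3 libraries each after 48 h. The HL group received 25 mmol/L glucose and 200 nmol/L liraglutide, a long-acting drug that activates the GLP-1 receptor. The H group received 25 mmol/L glucose without liraglutide, and the NC group was the control, whose glucose concentration is not given in the sources used here. No osmotic control was analysed here, and the methods state that experiments were repeated independently without saying which cultures the sequenced libraries came from, so the p-values measure the spread between these libraries, which may be in part technical. The comparisons ask how high glucose changed the myoblasts (H against NC), how liraglutide changed them under high glucose (HL against H), and where they then stood relative to control (HL against NC). HL against H and H against NC share the H libraries, and the other pairs of comparisons share libraries in the same way.

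Values are FPKM, fragments scaled to transcript length and to the mapped fragments of the library. The libraries held 17.4 to 21.7 M fragments in HL, 19.2 to 23.0 M in H and 21.01 to 21.19 M in NC (M, 1e6), estimated from the steps between low values, and each mitochondrial gene longer than 600 bases that was tested rested on at least 1592 fragments per library. The 7 of 10 myoblast markers with an FPKM of at least 1 in every library included Des and Itga7, and the summed myoblast markers were 647 to 670 FPKM in HL, 307 to 459 in H and 449 to 464 in NC. Des gave the largest part of this sum. In H against NC 2 of the 8 tested myoblast markers were higher and 4 lower at the adjusted p (limma), beside 27.1% and 33% of all tested genes. In HL against H 6 of them were higher and 0 lower, where 26.7% of all tested genes were higher. In HL against NC 5 were higher and 0 lower, where 21.6% of all tested genes were higher. Macrophage markers summed to 19.3 to 20.4 FPKM in HL, 106 to 169 in H and 5.39 to 6.65 in NC, mostly from Csf1r and Cd68, while the defining markers Ptprc and Adgre1 were at most 0.0219 and 0.0594 FPKM in any library. Fibroblast or mesenchymal markers summed to 465 to 510 FPKM in HL, 652 to 734 in H and 758 to 780 in NC, with 4 of 6 at 1 FPKM or more in every library. Most of this sum was Ly6a. The single markers did not all follow it, as in H against NC 2 of the 4 tested ones were higher and 1 lower at the adjusted p. Of these, Cd34 was called higher in H (log2 fold change 1.22). All 4 tested ones were lower in HL than in H at the adjusted p, where 21.7% of all tested genes were lower. Endothelial, adipocyte and epithelial markers summed to at most 4.10, 0.312 and 2.97 FPKM. The part of these marker differences in the results was not tested. The H libraries varied more than the others (median SD of a gene's log2 values 0.087 in HL, 0.17 in H and 0.072 in NC), and H replicate 1 stood apart in the rRNAs while H replicate 3 was low in most mRNAs, so values without these libraries are given where they matter. In a bulk sample, fewer mitochondria per cell and less RNA per mitochondrion cannot be told apart.

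Of the 37 genes, 15 passed the filter of at least 1 FPKM in at least 3 libraries, namely all 13 mRNAs and both rRNAs. By level, the rRNAs and mt-Co2 as deposited were at the low end and mt-Atp8 at the high end. A call needed an adjusted p below 0.05 together with a log2 fold change beyond 1 in either direction (limma, Benjamini-Hochberg adjustment over all 13674 tested genes), and fold changes are on the log2(FPKM + 0.1) scale.

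**Figure D1:**
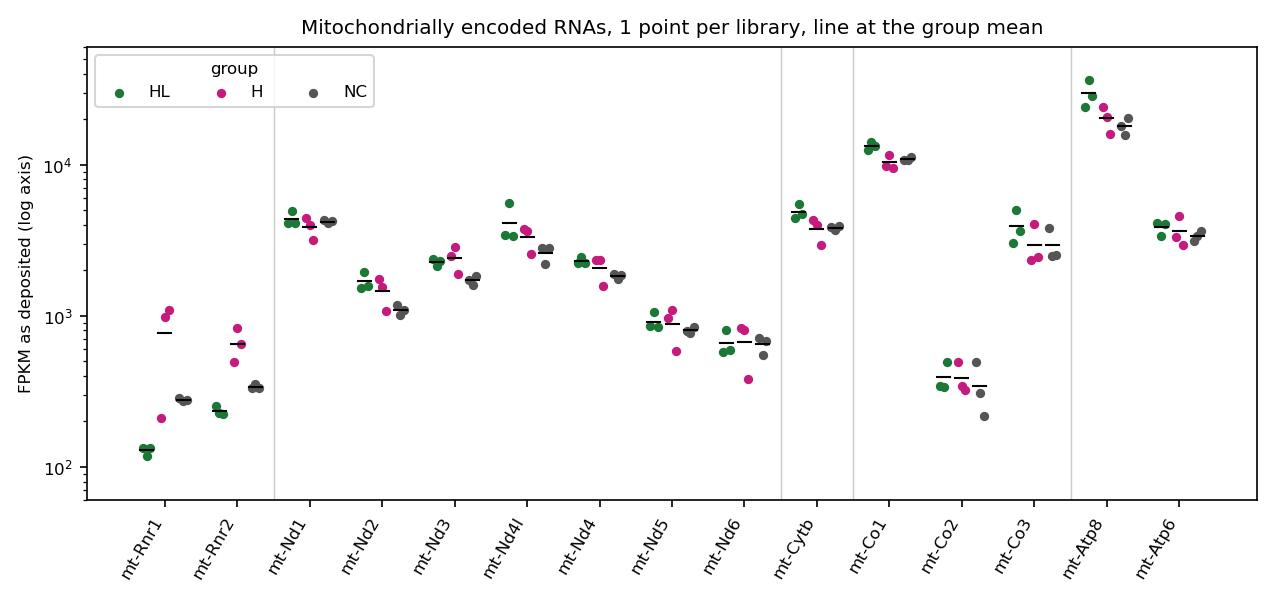
FPKM on a log axis for the 13 mRNAs and 2 rRNAs, with 1 point per library for the HL (green), H (magenta) and NC (grey) groups and a line at each group mean. The rRNAs at the left are low in all 3 HL libraries and spread widely in H, while most mRNAs differ little between groups.

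All 22 tRNAs were listed at 0 in every library. Their annotated lengths were 59 to 75 bases, and other transcripts of this size were also nearly absent. Of 783 genes in the table with a single transcript of at most 75 bases, 1 had a value above 0 in any library, against 114 of the 2624 genes whose single transcript was longer and reached up to 150 bases. The 0 was therefore not read as absence, and no comparison of the tRNAs was made. The shortest of them is mt-Ts2, a serine tRNA (chrM:11613-11671), shown whole as the smallest RNA in the set. Sequences here are GENCODE M21 transcripts on GRCm38, the annotation at hand, whereas the submitters' processing notes name mm39, and no coordinate was converted.
mt-Ts2: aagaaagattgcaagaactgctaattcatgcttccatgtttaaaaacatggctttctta

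The rRNAs carried the largest differences of the 15 genes in H against NC and in HL against H. In HL they were lower than in H, and by more than the threshold, while in H they were higher than in NC in every library but 1, which was below NC in mt-Rnr1. mt-Rnr1 (ENSMUSG00000064337.1, chrM:70-1024) encodes the RNA of the small subunit of the mitochondrial ribosome, and mt-Rnr2 (ENSMUSG00000064339.1, chrM:1094-2675) that of the large subunit. The libraries were enriched for mRNA, and in mammals the mitochondrial rRNAs carry only short poly(A) tails, added after the last templated base. The last 60 bases of both rRNAs are shown because that end is where such a tail would join.
mt-Rnr1: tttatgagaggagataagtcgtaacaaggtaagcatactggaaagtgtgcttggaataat
mt-Rnr2: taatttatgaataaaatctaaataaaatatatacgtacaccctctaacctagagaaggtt

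mt-Rnr1 was measured at 134, 119 and 133 FPKM in the HL libraries, 209, 985 and 1099 FPKM in H, and 285, 274 and 277 FPKM in NC. All HL libraries lay below all H and all NC libraries, and H replicate 1 lay below the NC libraries while the other H libraries lay above them. Compared with the H group, mt-Rnr1 fell in HL (log2 fold change -2.25 ± 0.57 (SE), adjusted p = 0.0148 with limma, n = 3 each), and this call held in all alternatives, with adjusted p between 1.22e-07 and 0.0494. Compared with NC, the log2 fold change of H was 1.13 ± 0.57 (adjusted p = 0.126, limma), and without H replicate 1 it was 1.90 (adjusted p = 2.64e-07), against 0.78 (adjusted p = 0.318) without H replicate 2 and 0.70 (adjusted p = 0.291) without H replicate 3. Compared with NC, that of HL was -1.12 ± 0.57 (adjusted p = 0.147, limma). In this comparison the spread of the H libraries enters the shared error, and a fit of only the HL and NC libraries gave the same fold change with an adjusted p of 7.67e-06, a call.

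mt-Rnr2 was measured at 252, 228 and 225 FPKM in HL, 494, 825 and 648 FPKM in H, and 335, 352 and 333 FPKM in NC. The groups did not overlap, with HL lowest and H highest, and neither did those of 65.5% of all tested genes in H against NC and 55.3% in HL against H. mt-Rnr2 fell in HL compared with H (log2 fold change -1.45 ± 0.15 (SE), adjusted p = 7.6e-05, limma), with adjusted p of at most 0.00078 in every alternative. It was higher in H than in NC (0.92 ± 0.15, adjusted p = 0.000616, limma), just under the fold threshold, which it passed at 1.11 after rescaling to TPM and at 1.10 without H replicate 1. It was lower in HL than in NC (-0.53 ± 0.15, adjusted p = 0.0159, limma), with adjusted p between 0.000135 and 0.0705 over the alternatives. Both rRNAs were thus called in HL against H, where 9.38% of all tested genes were called and 5.83% were called lower. No gene of the 15 was called in H against NC, where 16% of all tested genes were called, or in HL against NC, where 8.72% were, although 3 and 8 of the 15 had an unadjusted p under 0.05 in these comparisons.

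The ratio of rRNA to mRNA within a library does not depend on how the library is scaled. The summed FPKM of the 2 rRNAs divided by that of the 13 mRNAs was 0.00605, 0.00415 and 0.00517 in HL, 0.0116, 0.0294 and 0.0386 in H, and 0.0116, 0.0129 and 0.0111 in NC. The HL libraries lay below all others, and H replicate 1 lay within the NC range. In the sum of the mRNAs mt-Atp8, the highest of them, weighs most. For mt-Rnr2 over the median mRNA the HL values were 0.0830, 0.0675 and 0.0672. The H values were 0.198, 0.227 and 0.264 and the NC values 0.119, 0.159 and 0.132, so here H replicate 1 lay above NC. On the log2 scale the ratio of the sums averaged -7.63 ± 0.27 in HL, -5.41 ± 0.91 in H and -6.40 ± 0.11 in NC (SD, n = 3 each). The difference was -2.22 for HL against H and -1.23 for HL against NC, each with p = 0.1 in a two-sided exact permutation test, the smallest p that 3 against 3 libraries allow, and 0.99 for H against NC (exact p = 0.3). Over the 9 comparisons of within-library values, the adjusted p was 0.225 for both HL comparisons. Transcripts without a poly(A) tail were read as a check on enrichment: 3 of the 10 such nuclear transcripts in the table were tested, and none passed the adjusted p in the fit of all libraries. Snord17 averaged 4.89 ± 2.07 FPKM in HL, 5.14 ± 2.61 in H and 3.62 ± 1.17 in NC, and Rpph1, the RNA of ribonuclease P, averaged 1.21 ± 0.72, 2.52 ± 1.48 and 3.11 ± 1.23 FPKM in the same groups (SD, n = 3 each). The log2 fold change of Rpph1 in HL was -1.35 against NC (adjusted p = 0.0517, limma) and -1.01 against H (adjusted p = 0.129). Against NC it passed as a call without H replicate 1 (adjusted p = 0.0473) or without H replicate 3 (adjusted p = 0.0373). The part of mRNA enrichment in the rRNA differences was not tested.

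**Figure D2:**
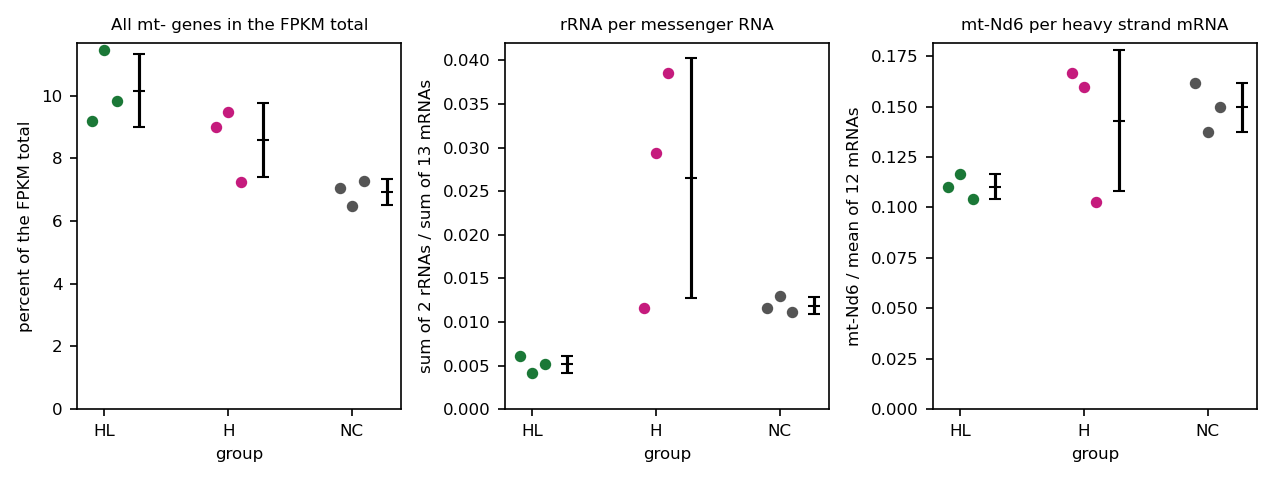
Within-library values for HL, H and NC, with 1 point per library and the mean ± SD (n = 3) beside them: the percent of the FPKM total from all mt- genes, the summed rRNAs over the summed mRNAs, and mt-Nd6 over the mean of the other 12 mRNAs. HL lies below the other groups in the rRNA ratio and above NC in the share, and the H libraries spread most in both ratios.

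The mRNAs cannot all be read gene by gene, because a stretch of nuclear chromosome 1 holds near-identical copies of 7 of them. A search of the annotated transcripts found 20 nuclear copies of 12 of the mitochondrial genes, and 7 of them matched at 99% identity or more. These 7 pseudogenes lie side by side at chr1:24611535-24616197 (GRCm38), a known insertion of mitochondrial DNA in the nuclear genome. Gm28661 matched mt-Co2 without a difference over 681 bases, Gm10925 matched mt-Atp6 over 678, Gm28437 matched mt-Co3 over 783, Gm28439 matched the start of mt-Nd4 over 876 and Gm10222 matched mt-Nd4l over 294. Gm29216 differed from the end of mt-Co1 by 1 base in 483 (A1066T) and Gm28438 from mt-Nd3 by 1 base in 345 (T3C), where the mitochondrial base comes first and positions count from the first base of the mitochondrial gene. The other 13 copies had 87.5% to 97.6% identity and reached at most 2.88 FPKM.

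A window of 60 bases inside mt-Co2 (bases 445 to 504 of the gene) is shown with its perfect copy on chromosome 1 and a diverged copy on chromosome 2, since a fragment from the first pair cannot be placed by its sequence. Capitals mark the bases that differ from mt-Co2, 6 in Gm13341 and 0 in Gm28661.
mt-Co2: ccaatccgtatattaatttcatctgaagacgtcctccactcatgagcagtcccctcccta
Gm28661: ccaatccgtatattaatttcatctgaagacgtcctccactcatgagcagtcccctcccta
Gm13341: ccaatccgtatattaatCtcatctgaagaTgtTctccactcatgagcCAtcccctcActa
For mt-Co1 and mt-Nd3 the only base that differs from the chromosome 1 copy is in capitals, so within the aligned stretch only fragments that cover it tell the copies apart. For mt-Co1 that stretch is bases 1063 to 1545, and the bases before it are not shared with Gm29216.
mt-Co1: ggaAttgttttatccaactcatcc
Gm29216: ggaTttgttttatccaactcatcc
mt-Nd3: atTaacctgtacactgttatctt
Gm28438: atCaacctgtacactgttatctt

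The deposited values split the shared fragments in very different ways from gene to gene. Of the summed signal of mt-Co2 and its copy, 1.65% to 4.30% was assigned to the mitochondrial gene, and the pseudogene Gm28661 was listed at 9060 to 16929 FPKM. The mitochondrial gene received 27.4% to 58.1% for mt-Atp6, 32.2% to 55.9% for mt-Co3, 66.9% to 86.4% for mt-Nd3 and 97.8% or more for mt-Co1. For mt-Nd4 and mt-Nd4l the copies were listed at 0 in every library. Which copy the fragments came from was not tested, and for these genes the value with the copy added (weighted by length) is given beside the deposited value.

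**Figure D3:**
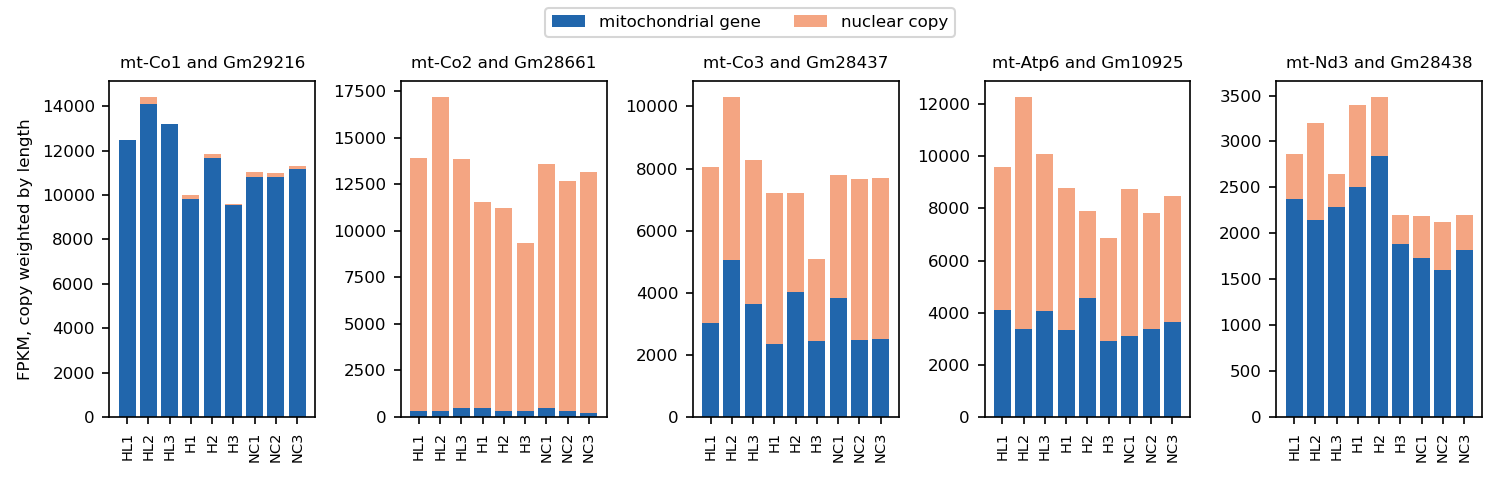
Deposited FPKM of 5 mitochondrial genes (blue) with the length-weighted FPKM of their near-identical nuclear copy stacked on top (orange), for the libraries of HL, H and NC from left to right. Nearly all signal of the mt-Co2 pair is listed under the copy, and the split of mt-Co3 and mt-Atp6 differs between libraries of the same group.

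Complex I (NADH dehydrogenase) takes electrons from NADH into the respiratory chain, and 7 of the 13 mRNAs encode subunits of its membrane arm. mt-Nd1 (chrM:2751-3707) was at 4133, 4948 and 4080 FPKM in HL, 4456, 4008 and 3159 FPKM in H, and 4309, 4081 and 4212 FPKM in NC. The groups overlapped in every comparison, and the log2 fold changes were -0.13 ± 0.12 for H against NC, 0.19 ± 0.12 for HL against H and 0.06 ± 0.12 for HL against NC (SE, adjusted p of 0.364, 0.220 and 0.718, limma).

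mt-Nd2 (chrM:3914-4951) encodes another membrane subunit of complex I. It was at 1534, 1962 and 1570 FPKM in HL, 1760, 1540 and 1074 FPKM in H, and 1170, 1012 and 1095 FPKM in NC. All HL libraries were above all NC libraries, and H replicate 3 lay within the NC range while the other H libraries were above it. mt-Nd2 was higher in HL than in NC (0.62 ± 0.17, adjusted p = 0.0131, limma; 0.0011 to 0.0505 over the alternatives), and its log2 fold change was 0.39 ± 0.17 for H against NC (adjusted p = 0.0706) and 0.23 ± 0.17 for HL against H (adjusted p = 0.278).

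mt-Nd3 (chrM:9459-9806) encodes a small subunit of complex I and has a near-identical copy. It was at 2369, 2144 and 2289 FPKM in HL, 2501, 2839 and 1889 FPKM in H, and 1728, 1602 and 1821 FPKM in NC. Every HL and every H library was above every NC library. Of the 13 mRNAs it was the only one past the adjusted p in H against NC (0.47 ± 0.13, adjusted p = 0.0103, limma; 0.000248 to 0.0386 over the alternatives), where 27.1% of all tested genes were higher at this p. It was also higher in HL than in NC (0.40 ± 0.13, adjusted p = 0.0267; 0.000898 to 0.0866 over the alternatives). With the copy added, these values were 0.45 ± 0.15 (adjusted p = 0.0305) and 0.42 ± 0.15 (adjusted p = 0.0501). At 348 bases mt-Nd3 is not much longer than the 265 to 285 bases by which lengths had been shortened, a range estimated from the low values. This shortening varied between libraries, and its part in the mt-Nd3 differences was not tested.

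mt-Nd4l (chrM:9877-10173) and mt-Nd4 (chrM:10167-11544) are carried on 1 joint mRNA in mammals, and their reading frames share 7 bases, in capitals below.
mt-Nd4l: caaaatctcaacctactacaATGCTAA
mt-Nd4: ATGCTAAaaattattcttccctcacta
mt-Nd4l was at 3446, 5565 and 3354 FPKM in HL, 3727, 3629 and 2576 FPKM in H, and 2825, 2215 and 2823 FPKM in NC. mt-Nd4 was at 2233, 2437 and 2236 FPKM in HL, 2347, 2322 and 1576 FPKM in H, and 1879, 1739 and 1858 FPKM in NC. For both genes all HL libraries were above all NC libraries and H overlapped both groups. mt-Nd4l was higher in HL than in NC (0.62 ± 0.21, adjusted p = 0.0351, limma; 0.0121 to 0.115 over the alternatives), with 0.38 (adjusted p = 0.1) without HL replicate 2, its highest library, and the value for mt-Nd4 was 0.33 ± 0.13 (adjusted p = 0.0644). At 297 bases mt-Nd4l is little longer than the 265 to 285 bases by which lengths had been shortened, estimated from the steps between low values. This shortening varied between libraries and was largest in HL replicate 2, and its part in the mt-Nd4l differences was not tested. For H against NC the log2 fold changes were 0.33 ± 0.21 for mt-Nd4l and 0.17 ± 0.13 for mt-Nd4, and for HL against H they were 0.29 ± 0.21 and 0.17 ± 0.13 (adjusted p of 0.206 to 0.328).

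mt-Nd5 (chrM:11742-13565) encodes the outermost proton-pumping subunit of complex I. It was at 855, 1054 and 838 FPKM in HL, 961, 1086 and 583 FPKM in H, and 796, 765 and 838 FPKM in NC. HL lay just above NC, with the lowest HL library and the highest NC library nearly equal, and H spread from below to above both. None of its 3 log2 fold changes, 0.08 for H against NC, 0.10 for HL against H and 0.19 for HL against NC (SE 0.20 each), passed the adjusted p (0.460 to 0.729, limma).

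mt-Nd6 (chrM:13552-14070) is the only mRNA encoded on the other strand, as its messenger comes from transcription of the light strand promoter, and it shares 14 bases with the end of mt-Nd5 on the opposite strand. It was at 579, 803 and 598 FPKM in HL, 833, 808 and 385 FPKM in H, and 710, 547 and 680 FPKM in NC. The groups overlapped, and the log2 fold changes were -0.01 for H against NC, 0.03 for HL against H and 0.02 for HL against NC (SE 0.28 each, adjusted p of at least 0.929, limma). Relative to the mean of the 12 mRNAs of the other strand, mt-Nd6 was 0.110, 0.117 and 0.104 in HL, 0.167, 0.160 and 0.103 in H, and 0.161, 0.137 and 0.150 in NC. HL lay below NC without overlap (log2 difference -0.44, exact permutation p = 0.1, the smallest possible; adjusted over the 9 comparisons 0.225), and H overlapped both groups (-0.34 for HL against H, exact p = 0.4, and -0.09 for H against NC, exact p = 0.9). In this mean mt-Atp8 weighs most, with 29575 FPKM on average in HL and 18025 in NC, while mt-Nd6 itself hardly differed. The part of mt-Atp8 in the lower ratio of HL was not tested, so the ratio is not read as a difference between strands. Whether the counting used strand is not given in the sources used here, so reads of precursor RNA from the opposite strand cannot be told apart from mt-Nd6.

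Complex III passes electrons from ubiquinol to cytochrome c, and mt-Cytb (chrM:14145-15288) encodes its cytochrome b. It was at 4467, 5494 and 4680 FPKM in HL, 4287, 3963 and 2920 FPKM in H, and 3860, 3677 and 3948 FPKM in NC. Every HL library was above every library of H and NC, and H and NC overlapped. mt-Cytb was higher in HL than in H (0.40 ± 0.13, adjusted p = 0.0307, limma; 0.0118 to 0.107 over the alternatives), with 0.24 (adjusted p = 0.0571) without H replicate 3. The log2 fold change was 0.35 ± 0.13 for HL against NC (adjusted p = 0.0551) and -0.06 ± 0.13 for H against NC (adjusted p = 0.719).

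Complex IV (cytochrome c oxidase) hands the electrons to oxygen, and its catalytic core is made of the products of mt-Co1, mt-Co2 and mt-Co3. mt-Co1 (chrM:5328-6872) was at 12500, 14121 and 13225 FPKM in HL, 9825, 11657 and 9558 FPKM in H, and 10802, 10805 and 11164 FPKM in NC. All HL libraries lay above all others. mt-Co1 was higher in HL than in H (0.36 ± 0.08, adjusted p = 0.00365, limma) and than in NC (0.28 ± 0.08, adjusted p = 0.0130), and both held in every alternative, with adjusted p of at most 0.0162 and 0.0495. H against NC gave -0.08 ± 0.08 (adjusted p = 0.359). With the copy added, the values were 0.36, 0.26 and -0.09.

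mt-Co2 (chrM:7013-7696), which binds cytochrome c, was listed at 342, 337 and 492 FPKM in HL, 497, 343 and 322 FPKM in H, and 496, 310 and 217 FPKM in NC. These deposited values overlapped throughout and gave log2 fold changes of 0.24 for H against NC, 0.02 for HL against H and 0.26 for HL against NC (SE 0.30 each, adjusted p of at least 0.503, limma). With the copy Gm28661 added, the level was 13893, 17192 and 13834 FPKM in HL, 11568, 11230 and 9342 FPKM in H, and 13585, 12654 and 13148 FPKM in NC, close to that of mt-Co1. Now the groups did not overlap, with H lowest and HL highest. The sum was higher in HL than in H (0.48 ± 0.10, adjusted p = 0.00373, limma) and lower in H than in NC (-0.30 ± 0.10, adjusted p = 0.0272), so the direction of H against NC turned when the copy was added. Without H replicate 3 the sum in H against NC was -0.20 (adjusted p = 0.0924). For HL against NC it was 0.18 ± 0.10 (adjusted p = 0.160).

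mt-Co3 (chrM:8607-9390) was at 3039, 5047 and 3638 FPKM in HL, 2342, 4032 and 2455 FPKM in H, and 3830, 2469 and 2526 FPKM in NC as deposited. All groups overlapped, and the log2 fold changes were 0.42 ± 0.26 for HL against H, -0.01 ± 0.26 for H against NC and 0.41 ± 0.26 for HL against NC (adjusted p of 0.219, 0.968 and 0.234, limma). With the copy Gm28437 added, the level was 8058, 10307 and 8282 FPKM in HL, 7209, 7214 and 5097 FPKM in H, and 7802, 7665 and 7704 FPKM in NC. The NC libraries, whose SD was 770 FPKM before, then had an SD of 70.5 FPKM, and the groups no longer overlapped. The sum was higher in HL than in H (0.46 ± 0.14, adjusted p = 0.0207), and the values were -0.27 ± 0.14 for H against NC (adjusted p = 0.119) and 0.19 ± 0.14 for HL against NC (adjusted p = 0.271). Without H replicate 3 the sum gave 0.29 for HL against H (adjusted p = 0.0386) and -0.10 for H against NC (adjusted p = 0.400).

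Complex V is the ATP synthase, and mt-Atp8 (chrM:7766-7969) and mt-Atp6 (chrM:7927-8607) encode subunits of its proton channel side from 1 joint mRNA in mammals. Their reading frames share 43 bases, which are in capitals below, so a fragment from the overlap belongs to both genes.
mt-Atp8: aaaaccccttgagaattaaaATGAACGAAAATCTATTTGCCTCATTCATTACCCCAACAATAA
mt-Atp6: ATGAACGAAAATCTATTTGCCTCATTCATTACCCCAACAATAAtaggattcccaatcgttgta
mt-Atp8 was at 24198, 36169 and 28359 FPKM in HL, 23974, 20762 and 15854 FPKM in H, and 17990, 15802 and 20282 FPKM in NC, the highest level of all 15 genes. At 204 bases it is also the shortest of them. The steps between low values showed that lengths had been shortened by 265 to 285 bases, so its level is not comparable with that of longer genes. The fitted shortening was 270, 285 and 270 bases in the HL libraries, 270, 270 and 275 in H, and 265, 265 and 275 in NC. The part of this variation between libraries in the mt-Atp8 differences between groups was not tested. All HL libraries were above all H and all NC libraries. mt-Atp8 was higher in HL than in H (0.55 ± 0.18, adjusted p = 0.0286, limma; 0.0178 to 0.0994 over the alternatives) and than in NC (0.70 ± 0.18, adjusted p = 0.0096), and H against NC gave 0.15 ± 0.18 (adjusted p = 0.481).

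mt-Atp6 was at 4098, 3370 and 4058 FPKM in HL, 3327, 4584 and 2930 FPKM in H, and 3117, 3385 and 3655 FPKM in NC as deposited. The groups overlapped and no comparison passed the adjusted p (log2 fold changes 0.07 for H against NC, 0.11 for HL against H and 0.18 for HL against NC, SE 0.15 each). With the copy Gm10925 added, the level was 9579, 12277 and 10088 FPKM in HL, 8773, 7888 and 6849 FPKM in H, and 8738, 7818 and 8482 FPKM in NC. HL was then above both other groups without overlap, with 0.44 ± 0.11 against H (adjusted p = 0.00879, limma) and 0.34 ± 0.11 against NC (adjusted p = 0.0259), and H against NC was -0.10 ± 0.11 (adjusted p = 0.461).

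**Figure D4:**
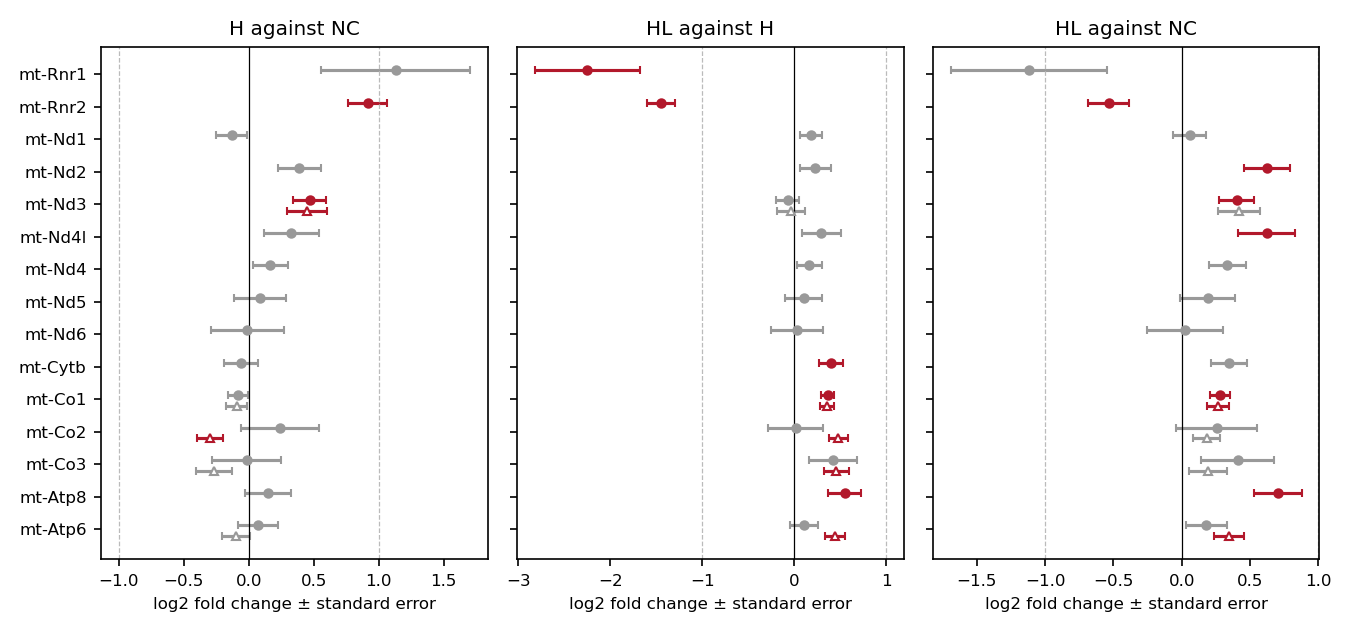
log2 fold change ± SE (limma) of the 15 genes in H against NC, HL against H and HL against NC, as deposited (filled circles) and with near-identical nuclear copies added (open triangles). Red marks an adjusted p under 0.05 and dashed lines a log2 fold change of 1. Both rRNAs lie left of -1 in HL against H, and the mRNAs lie between -0.30 and 0.70 in all panels.

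Across the 13 mRNAs, the median log2 fold change was 0.08 in H against NC, 0.19 in HL against H and 0.33 in HL against NC, where that of all tested genes was -0.04, 0.04 and -0.04. With nuclear copies added these medians of the mRNAs were -0.01 (6 positive and 7 negative), 0.29 and 0.33. At the adjusted p alone (limma), 1 mRNA was higher and 0 lower in H against NC, where 60.1% of all genes passed. With copies added 1 was higher and 1 lower (the mt-Co2 sum). In HL against H, 3 were higher and 0 lower (mt-Co1, mt-Atp8 and mt-Cytb), against 26.7% of all genes that were higher, and with nuclear copies added 6 were higher. In HL against NC, 5 were higher and 0 lower, against 21.6% of all genes that were higher, and all 13 fold changes were positive. In 8 of the 13 every HL library lay above every NC library, in a comparison in which 65.8% of all tested genes did not overlap. No test of the difference between these shares was made. The counts of higher mRNAs include mt-Atp8 in both HL comparisons and mt-Nd4l in HL against NC. As deposited, they also include mt-Nd3 in H against NC and in HL against NC. All of these genes are short, and their FPKM depends strongly on the length shortening fitted for each library. Without H replicate 3, the median for H against NC was 0.35 with 4 mRNAs higher, and for HL against H it was 0.03 with mt-Co1 higher and mt-Nd3 lower (-0.23, adjusted p = 0.0398). Without H replicate 2 the medians lay the other way, at -0.09 for H against NC with 6 of 13 positive, 1 mRNA higher and 1 lower (mt-Co1, -0.17, adjusted p = 0.02), and at 0.29 for HL against H with 5 higher.

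All mt- genes together made up 9.19%, 11.4% and 9.82% of the FPKM total in HL, 9.01%, 9.47% and 7.24% in H, and 7.07%, 6.48% and 7.28% in NC. HL lay above NC without overlap, and H overlapped both groups. The means were 10.2 ± 1.17% in HL, 8.57 ± 1.18% in H and 6.94 ± 0.416% in NC (SD, n = 3 each), with two-sided exact permutation p of 0.1 for HL against NC, the smallest possible, and 0.2 for HL against H and for H against NC (0.225 and 0.3 when adjusted over the 9 comparisons). With near-identical copies added the means were 13.9 ± 1.69% in HL, 11.4 ± 1.47% in H and 9.98 ± 0.452% in NC. mt-Atp8 made up a large part of the share, and without it the means were 6.02 ± 0.425% in HL, 5.56 ± 0.788% in H and 4.58 ± 0.171% in NC.

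The FPKM totals themselves differed, at 698627 to 731929 in HL, 649733 to 683362 in H and 757000 to 765681 in NC. Rescaling each library to the same total (TPM) gave an all-gene median of 0.15 in H against NC, -0.06 in HL against H and 0.05 in HL against NC, each with its sign turned. Under this scaling the median of the 13 mRNAs was 0.28 in H against NC with all 13 positive, 0.09 in HL against H and 0.43 in HL against NC, so the negative values of mt-Nd1, mt-Co1, mt-Co3, mt-Nd6 and mt-Cytb in H against NC turned positive. The 2 rRNA calls in HL against H held.

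Most nuclear subunits of the same complexes were lower in H than in NC, while no mitochondrial mRNA was lower at the adjusted p as deposited, and only the mt-Co2 sum was with copies added. The difference between the 2 sets was not tested. In H against NC, where 33% of all tested genes were lower at the adjusted p (limma), 35 of 37 nuclear subunits of complex I were lower and 0 higher, with a median log2 fold change of -0.52, beside 0 of 7 mitochondrial ones. For complex III 8 of 9 nuclear subunits were lower (median -0.37), for complex IV 11 of 13 (median -0.41) and for complex V 15 of 16 (median -0.67), and complex II, which has no mitochondrially encoded subunit, had 4 of 4 lower (median -0.46). After rescaling to TPM these counts were 29, 5, 7, 15 and 4, with negative medians in each, where 2858 of all 13674 tested genes were lower. The only call was Atpif1, the inhibitor of ATP synthase, which fell in H compared with NC (159 ± 25.3 FPKM in H and 331 ± 13.7 in NC, log2 fold change -1.07, adjusted p = 2.4e-05), and which missed the fold threshold after rescaling (-0.88) and without H replicate 1 (-0.93). Among the most abundant subunits, Ndufb9 of complex I averaged 252 ± 6.41 FPKM in H and 336 ± 11.4 in NC. Uqcr11 of complex III averaged 209 ± 7.24 in H and 356 ± 16.5 in NC. Ndufa4 of complex IV averaged 458 ± 32.3 in H and 655 ± 5.0 in NC (SD, n = 3 each). Their log2 fold changes in H against NC were -0.42, -0.77 and -0.52. Other abundant subunits of these complexes fell less, with -0.27 for Ndufa7, -0.37 for Uqcrh and -0.27 for Cox6c.

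In HL against H most nuclear subunits were higher as deposited, as were some of the mitochondrial mRNAs. At the adjusted p, where 26.7% of all tested genes were higher, 25 of 37 nuclear subunits of complex I were higher and 0 lower (median 0.26), with 4 of 4 for complex II (median 0.34), 7 of 9 for complex III (median 0.27), 10 of 13 for complex IV (median 0.24) and 14 of 16 for complex V (median 0.31). After rescaling to TPM these counts were 14, 2, 3, 6 and 9, where 2510 of all 13674 tested genes were higher. Cox7a1, the muscle form of a complex IV subunit, was the only call and rose in HL compared with H (12.3 ± 1.2 FPKM in HL and 5.84 ± 2.31 in H, log2 fold change 1.14, adjusted p = 0.00707), a call that was lost without H replicate 1 (0.78, adjusted p = 0.00268). It also rose in HL compared with NC (12.3 ± 1.2 FPKM in HL and 4.02 ± 0.55 in NC, 1.59, adjusted p = 0.00117). In HL against NC, 26 of 37 nuclear complex I subunits were lower and 0 higher (median -0.28), where 27.2% of all genes were lower, while the 5 mitochondrial mRNAs past the adjusted p were higher. Complex II had 3 of 4 lower (median -0.19) and complex V 13 of 16 (median -0.30), with 0 higher in both. Complex III had 5 of 9 lower and 1 higher (median -0.19), and complex IV 5 of 13 lower and 2 higher (median -0.09). After rescaling to TPM, 16 of the 37 complex I subunits and 0, 3, 4 and 10 of those of complexes II, III, IV and V were lower. Under this scaling 1 of complex III and 3 of complex IV were higher, and 7 of the 13 mitochondrial mRNAs were higher. Of all 13674 tested genes, 2652 were lower and 3691 higher under it.

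**Figure D5:**
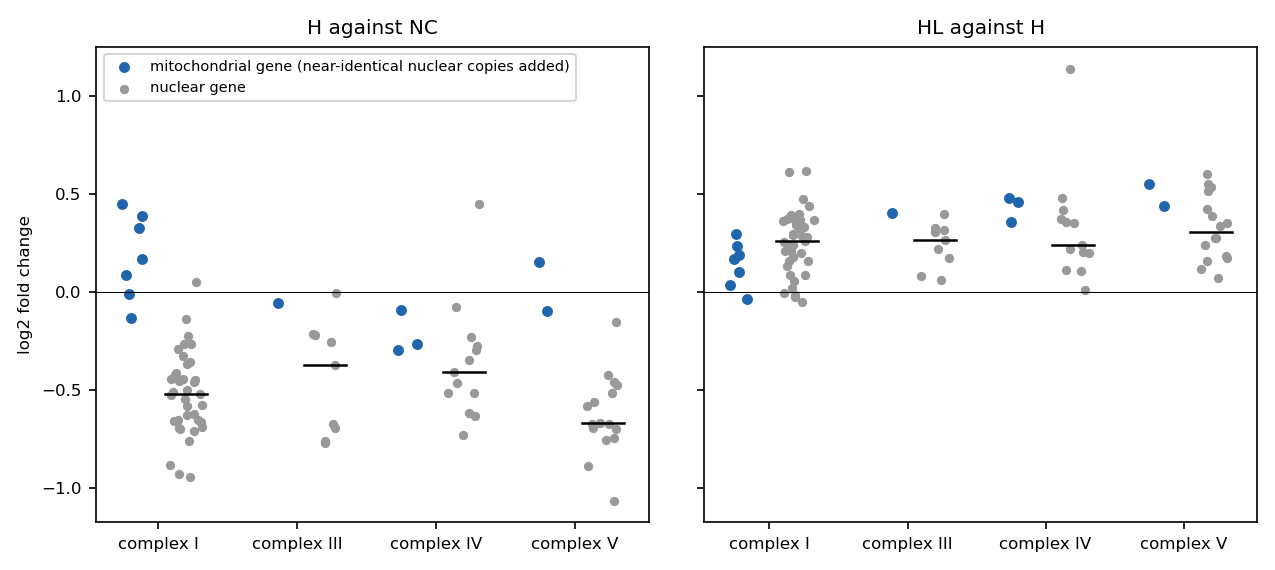
log2 fold change of the mitochondrially encoded subunits (blue, near-identical nuclear copies added) and the tested nuclear subunits (grey, with the median as a line) of complexes I, III, IV and V, for H against NC and HL against H. In H against NC the nuclear medians lie at -0.52, -0.37, -0.41 and -0.67, and in HL against H nearly all subunits of both origins lie above 0.

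The nuclear genes that serve mitochondrial gene expression were less uniform. Of 19 tested genes for transcription, replication and packaging of mitochondrial DNA, Tfb1m, which methylates the small rRNA, was the only call and fell in H compared with NC (3.86 ± 0.63 FPKM in H and 8.0 ± 0.61 in NC, log2 fold change -1.04, adjusted p = 0.000103), and it missed the fold threshold without H replicate 1 (-0.90) and after rescaling to TPM (-0.86). Under that rescaling 2 other genes of the list, chosen here after their values were seen, were called higher, namely Twnk, the helicase of mitochondrial DNA (1.02, adjusted p = 1.23e-05), and Mterf1a (1.18, adjusted p = 0.000136). Of all 13674 tested genes, 1783 were called higher in H against NC under it. Tfam, the main packaging and transcription factor of mitochondrial DNA, averaged 37.1 ± 3.17 FPKM in HL, 42.7 ± 6.66 in H and 51.6 ± 6.95 in NC, and was lower in HL than in NC (-0.47, adjusted p = 0.0151). Of 22 genes for RNA processing and decay, 11 were lower and 1 higher in H against NC at the adjusted p (median -0.21), where 33% of all tested genes were lower and 27.1% higher. After rescaling to TPM 6 were lower and 2 higher (median -0.02), where 2858 of all 13674 tested genes were lower and 5275 higher. Among the genes of this list, Rexo2, an oligoribonuclease, averaged 122 ± 4.08 FPKM in HL, 103 ± 4.94 in H and 147 ± 3.51 in NC. Hsd17b10, a subunit of mitochondrial ribonuclease P, averaged 69.7 ± 0.369 FPKM in HL, 58.9 ± 1.51 in H and 75.7 ± 2.89 in NC (SD, n = 3 each).

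Of 14 tested translation factors, 9 were lower and 0 higher in H against NC at the adjusted p, beside 33% and 27.1% of all tested genes. After rescaling to TPM 4 were lower and 2 higher, beside 2858 and 5275 of all 13674 tested genes. Tufm, the mitochondrial elongation factor Tu, averaged 64.5 ± 0.236 FPKM in HL, 57.3 ± 5.43 in H and 70.9 ± 0.891 in NC. Of 11 tested regulators of mitochondrial biogenesis, Ppargc1a, the coactivator PGC-1alpha, was the only call. It rose in H compared with NC (3.36 ± 1.11 FPKM in H and 0.197 ± 0.019 in NC, log2 fold change 3.48, adjusted p = 4.96e-06) and in HL compared with NC (1.65 ± 0.132 FPKM in HL and 0.197 ± 0.019 in NC, 2.56, adjusted p = 8.66e-05). Its NC libraries held only 0.176 to 0.214 FPKM, so Ppargc1a passed the filter only through the H and HL libraries. These NC values are close to the 0.1 added before the log, so the size of both fold changes against NC depends on that constant. Between HL and H its log2 fold change was -0.93 (adjusted p = 0.0175, limma), and without H replicate 1 it was -0.78 (adjusted p = 0.0784). After rescaling to TPM it was -1.03 (adjusted p = 0.0125), past the threshold.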

How the data were processed

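RNA of 9 C2C12 libraries (HL, H and NC, 3 each) was sequenced by the authors after enrichment of mRNA. The authors deposited 1 FPKM value for each gene in each library. The submitters' processing notes name HISAT2 2.1.0, StringTie 1.3.3b and mm39, the methods text names a human reference, and the deposited table's name points to another quantifier, while its identifiers are mouse Ensembl genes. FPKM are not counts, so no count test was run.

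Symbols came from the gene tables at hand (51482 of 54307 genes matched). log2(FPKM + 0.1) was tested with limma 3.58.1 (statmod 1.5.0, R 4.3.3; variance trend, robust option) in 1 fit of all 9 libraries, over 13674 genes with at least 1 FPKM in at least 3 libraries, with Benjamini-Hochberg adjustment within each comparison. The thresholds for a call were 0.05 for the adjusted p and 1, in either direction, for the log2 fold change. Within-library shares and ratios were compared by two-sided exact permutation tests. The fit was tested on simulated data.

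Depth came from the smallest steps in the FPKM of genes whose only transcript has at least 1500 bases: 99.5% to 99.8% of 1414 to 1681 values per library came within 0.1 of a whole number of fragments. Nuclear copies were found with BLAST 2.17.0 (at least 100 aligned bases and 85% identity; near-identical at 99%) among GENCODE M21 transcripts, and added to the mitochondrial gene weighted by length. Tables and plots used matplotlib 3.10.9, SciPy 1.17.1 and pandas 2.3.3 in Python 3.11.15.

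The genes named are all mRNAs and rRNAs, and in each nuclear list up to 4 called members or the 2 with the highest level, of which the text names part. The members and lists were chosen with earlier results of these data known. Alternatives changed the pseudocount (1 or 0.01), the filter (none, or 5 FPKM on average), the scaling (TPM, the total without mitochondrial genes, or centring), the fit (no robust option, group variance weights, only the groups compared, or a replicate block), the threshold (adjusted p alone) and the libraries (each left out). Adding the nuclear copies (also with each H library left out) and leaving out mt-Atp8 were chosen after seeing the data.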

Additional observations from a re-analysis of the deposited data

How the results depend on the processing

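The 2 rRNA calls in HL against H held under every alternative run. The number of calls was 2 in H against NC without H replicate 1 and 1 (mt-Rnr2) after rescaling to TPM or to the total without mitochondrial genes, and 1 (mt-Rnr1) in HL against NC with variance weights, with a fit of only these groups or without H replicate 1. At the adjusted p alone, 2, 5 and 6 of the 15 genes passed in H against NC, HL against H and HL against NC. Leaving out a library gave 0 to 2 calls in H against NC, 2 in HL against H and 0 to 1 in HL against NC.

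The deviations of same-numbered libraries from their group means had low correlations, -0.0366 to 0.0911. Between H and NC they were 0.0572, 0.0911 and 0.0456, against -0.0705 to 0.0109 for differently numbered pairs. In pairs with HL the same-numbered values were -0.0366 to 0.0264. Such correlations cannot show whether libraries shared a culture or a batch. With the replicate block the calls were 0, 2 and 0, and 4 genes instead of 5 passed the adjusted p in HL against H. Without mt-Atp8 the share differed by 1.44 percentage points between HL and NC, and mt-Rnr2 over the median mRNA gave a log2 difference of -0.91 between them, each with exact permutation p = 0.1.

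Small mRNA fold changes turned sign, none past the adjusted p except the mt-Co2 sum. In H against NC, rescaling to TPM gave 0.06 for mt-Nd1, 0.11 for mt-Co1, 0.18 for mt-Co3, 0.18 for mt-Nd6 and 0.13 for mt-Cytb, and rescaling to the total without mitochondrial genes gave 0.09, 0.14, 0.20, 0.21 and 0.16. Centring gave 0.01 for mt-Co3 and for mt-Nd6. Adding nuclear copies gave -0.30 for mt-Co2 and -0.10 for mt-Atp6. In HL against H these rescalings gave -0.08 and -0.06 for mt-Co2, and -0.06 and -0.04 for mt-Nd6. Leaving out a library gave ranges that crossed 0 in H against NC for mt-Nd1 (-0.24 to 0.01), mt-Co2 (-0.04 to 0.55), mt-Atp6 (-0.11 to 0.21), mt-Co3 (-0.26 to 0.19), mt-Nd5 (-0.09 to 0.35), mt-Nd6 (-0.20 to 0.35) and mt-Cytb (-0.17 to 0.11). They did so in HL against H for mt-Co2 (-0.16 to 0.21), mt-Atp6 (-0.03 to 0.29), mt-Nd3 (-0.23 to 0.06), mt-Nd4 (-0.02 to 0.27), mt-Nd5 (-0.17 to 0.28) and mt-Nd6 (-0.33 to 0.23), and in HL against NC for mt-Nd1 (-0.03 to 0.11), mt-Co2 (-0.03 to 0.57) and mt-Nd6 (-0.13 to 0.11). The cause of these changes was not tested. With 3 libraries a group, the exact permutation tests cannot go below p = 0.1.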
